A study of Homo sapiens with 4 samples.

Results

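The feedback genes described here are transcriptional outputs of ERK and STAT5, the signalling branches that the mutant receptor FLT3-ITD keeps active in some acute myeloid leukaemia (AML) cells. The set was given as 10 gene symbols: DUSP6, DUSP5, SPRY4, SPRED2 and ETV5 for the ERK branch, and PIM1, PIM2, SOCS2, SOCS3 and CISH for the STAT5 branch. Of these, 9 were found among the 18885 genes listed. SOCS3 was absent by symbol and by Ensembl identifier (ENSG00000184557), so it could not be analysed. Upon knockdown of ANP32B, DUSP6 rose to 180.5% of its control level, and SPRED2, ETV5 and CISH fell to between 72.4% and 80.4%. Each of these falls no longer passed an adjusted p of 0.05 with some library left out. DUSP5, at 81.4%, did not pass, and SPRY4, PIM1, PIM2 and SOCS2 lay between 96.9% and 104.8%. Of all genes tested, 45.7% passed.

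Total RNA of the human AML line MV4-11, known to carry FLT3-ITD and a rearranged KMT2A gene, was sequenced in 2 libraries of the control group, labelled NC, and 2 of the ANP32B knockdown group, labelled sh-ANP32B. The labels describe NC as untreated and give it no shRNA, whereas the study's methods describe a control shRNA called sh-NC and stable lentiviral lines selected with puromycin. No label states which hairpin the knockdown libraries carry, and none gives a time point. The table marks their columns S3, a mark the labels do not explain, and these columns were read as sh-ANP32B because they are the only ones beside NC, with the same replicate numbers. No source states that the libraries of a group came from separate cultures, so that p-values measure only the spread between these libraries.

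When a receptor tyrosine kinase is active, RAS, RAF and MEK pass the signal to ERK, and ERK in turn raises the transcription of genes whose proteins restrain the same pathway. DUSP5 and DUSP6 are phosphatases that remove the activating phosphates from ERK, whereas Sprouty and SPRED proteins act upstream, between the receptor and RAF. JAK kinases, and FLT3-ITD itself, activate STAT5, which raises CISH and SOCS genes, whose products bind receptors and JAKs and dampen them. PIM1 and PIM2, further STAT5 targets, encode constitutively active serine/threonine kinases that promote survival. The mRNA of these genes is therefore often read as a measure of pathway output, although each of them also has other regulators.

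The promoters of CISH and DUSP6 are shown as an example of a STAT5 output and an ERK output. Both runs are the 250 bases before the RefSeq transcription start (GRCh38.p14, minus strand, 5′ to 3′), with the STAT motif TTCNNNGAA, which reads the same on both strands, in capitals.
CISH, chr3:50611775-50612024: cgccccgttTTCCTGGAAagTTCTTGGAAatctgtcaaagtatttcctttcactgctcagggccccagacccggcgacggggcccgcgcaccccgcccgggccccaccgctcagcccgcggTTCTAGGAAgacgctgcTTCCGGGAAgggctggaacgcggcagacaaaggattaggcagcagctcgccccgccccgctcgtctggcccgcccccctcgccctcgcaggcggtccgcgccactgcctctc
DUSP6, chr12:89352502-89352751: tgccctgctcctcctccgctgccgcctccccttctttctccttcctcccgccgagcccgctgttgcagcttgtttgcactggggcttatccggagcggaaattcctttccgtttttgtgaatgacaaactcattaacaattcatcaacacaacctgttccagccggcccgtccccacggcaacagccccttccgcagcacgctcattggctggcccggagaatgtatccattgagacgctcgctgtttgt
The CISH window holds 4 matches, which begin at -241, -230, -129 and -112 from the start. Of 35116 promoter windows of the same length, 2306 (6.57%) hold at least 1 match and 5 (0.0142%) hold at least 4. RefSeq windows were matched for 7 of the 10 symbols, and CISH was the one with a match. The ETS motif CCGGAA, searched on both strands, occurs in 14.5% of all windows, and in that of CISH it has 1 match, within the last STAT match. The DUSP6 window has 0 matches to it. Neither the AP-1 motif TGANTCA nor the CRE motif TGACGTCA, found in 6.57% and 1.65% of all windows, occurs in the CISH or DUSP6 window. These matches describe letters and not bound sites.

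ANP32B, the targeted gene, held 358 and 364 TPM (a level divided by transcript length and scaled to a fixed library total) in NC and 54.1 and 49.3 TPM in sh-ANP32B, or 14.3% of the control mean. The libraries summed to between 997271 and 998546 TPM, and read depth is unknown because TPM keep none. Mitochondrial genes took 15.4% to 15.9% of the TPM in NC and 17.4% to 17.6% in sh-ANP32B. All fold changes below compare sh-ANP32B with NC on log2(TPM + 1), which understates the change of low genes, and were tested with limma across 16937 genes. A gene is said to have changed where its adjusted p (Benjamini-Hochberg) was below 0.05, and to be called where its log2 fold change is also beyond 0.5 (1.414-fold). Of all genes tested, 45.7% changed (26.0% higher and 19.7% lower) and 28.0% were called (17.9% higher and 10.1% lower), so that a change is common in these data. The median over all genes was a log2 fold change of 0.08. With 2 libraries against 2, permuting the labels exactly cannot give a single gene a p under 0.33.

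Among the 9 members, 4 changed, 1 higher and 3 lower, beside 45.7% of all genes, and 1, DUSP6, was called, beside 28.0%. Without the first or the second NC library 2 of them changed, DUSP6 with SPRED2 or with ETV5. Their median log2 fold change was -0.04. In 6 of them the libraries of the groups did not overlap, 4 lower and 2 higher, beside 74.7% of all genes (32.1% lower and 42.5% higher). By branch, 3 of the 5 ERK outputs and 1 of the 4 STAT5 outputs changed. The branches were not tested against each other. Summed over all 9 members, the level was 175 and 175.2 TPM in NC and 170.9 and 174.7 TPM in sh-ANP32B. Thus the sum lay close to the control while single members moved in both directions.

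**Figure D1:**
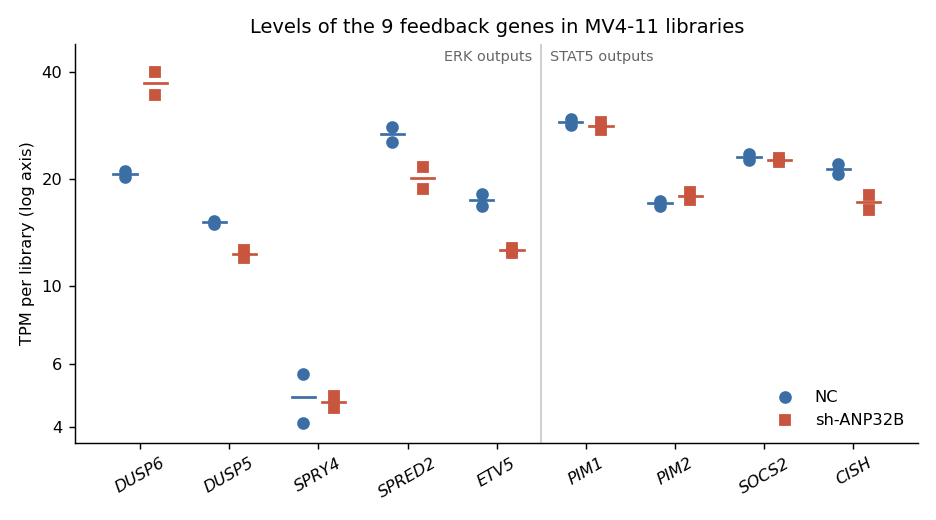
Level of each of the 9 measured feedback genes in every library, in TPM on a log axis, with ERK outputs left of the grey line and STAT5 outputs right of it. Blue circles are the 2 NC libraries, orange squares the 2 sh-ANP32B libraries, and horizontal bars the group means. DUSP6 is the member whose knockdown libraries (34.5 and 40.1 TPM) stand farthest above the control libraries (21.1 and 20.3 TPM), while SPRED2, ETV5, DUSP5 and CISH lie lower.

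Within the ERK branch, DUSP6 (ENSG00000139318, chromosome 12, 89347235 to 89352501, minus strand, hg38) encodes the cytoplasmic phosphatase that is the best known negative feedback regulator of ERK. Its level was 21.1 and 20.3 TPM in NC and 34.5 and 40.1 TPM in sh-ANP32B. Both knockdown libraries lay above both control libraries, by more than the gap within either group. The means were 20.7 ± 0.547 and 37.3 ± 3.98 TPM (SD, n = 2), and the log2 fold change was 0.82 (SE 0.092, 95% interval 0.59 to 1.05, limma adjusted p = 0.00142). This value exceeded that of 89.2% of the genes tested. Under all alternatives tried it stayed between 0.71 and 0.92, with adjusted p between 0.00111 and 0.0074. An antisense lncRNA, ENSG00000274021, shares 1105 of the 3859 exonic bases of DUSP6 and held 0.737 and 1.59 TPM in NC and 5.64 and 3.21 TPM in sh-ANP32B. Whether reads were assigned by strand is not given in the sources used here, so reads of the pair may not be separable, and the part of this RNA in the DUSP6 value was not tested.

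DUSP5, the nuclear counterpart that dephosphorylates ERK and holds it in the nucleus, did not follow DUSP6. It held 14.9 and 15.2 TPM in NC and 12.6 and 11.9 TPM in sh-ANP32B. The knockdown libraries were both lower, at 81.4% of the control mean, but the log2 fold change of -0.28 (SE 0.093, 95% interval -0.51 to -0.05) missed the threshold (limma adjusted p = 0.0565). It passed when the libraries were scaled by median of ratios (log2 fold change -0.37, adjusted p = 0.0229) or by quantiles (-0.38, adjusted p = 0.022). DUSP5 has 2 annotated pseudogenes, with which reads could be shared.

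SPRY4 and SPRED2 encode inhibitors of the step from the receptor to RAF, SPRED2 by bringing neurofibromin to the membrane to switch off RAS. SPRED2 held 25.4 and 28.0 TPM in NC and 18.7 and 21.6 TPM in sh-ANP32B. Both knockdown libraries were below both controls, and the log2 fold change was -0.39 (SE 0.0998, 95% interval -0.64 to -0.14, limma adjusted p = 0.0247). It no longer passed without the second NC library (-0.32, adjusted p = 0.103) or the first sh-ANP32B library (-0.29, adjusted p = 0.0849). SPRY4, the lowest member in both groups, held 5.62 and 4.10 TPM in NC and 4.53 and 4.89 TPM in sh-ANP32B. Its control libraries bracketed the knockdown libraries, the log2 fold change was -0.03 (95% interval -0.48 to 0.43), and its sign turned with the scaling and with the library left out.

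ETV5 encodes a transcription factor of the PEA3 group of ETS proteins, whose mRNA is raised by ERK and whose targets include DUSP and SPRY genes. Its level was 18.1 and 16.7 TPM in NC and 12.4 and 12.8 TPM in sh-ANP32B. The groups did not overlap, and the knockdown mean was 72.4% of the control mean. ETV5 fell by 0.44 on the log2 scale (SE 0.093, 95% interval -0.67 to -0.20, limma adjusted p = 0.0133). This was the lowest fold change among the members, although 14.7% of all genes lay lower. Without the first NC library the value was -0.38 and no longer passed (adjusted p = 0.0691). ETV5 and DUSP6 therefore moved in opposite directions although both are read as ERK outputs. ETV5 shares 164 of its 5773 exonic bases with DGKG on the same strand, which held 16.3 and 17.9 TPM in NC and 14.2 and 15.7 TPM in sh-ANP32B.

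In the STAT5 branch, the PIM kinases were close to their control levels. PIM1 held 28.4 and 29.4 TPM in NC and 28.9 and 27.4 TPM in sh-ANP32B. PIM2 held 17.3 and 16.8 TPM in NC and 18.3 and 17.4 TPM in sh-ANP32B. The PIM1 libraries of the groups overlapped, and those of PIM2 were separated by less than the gaps within the groups. The log2 fold changes were -0.04 (95% interval -0.21 to 0.13) for PIM1 and 0.06 (-0.14 to 0.27) for PIM2, and the sign for PIM2 turned negative under median-of-ratios scaling. Both intervals lay inside the fold limit of 0.5 in either direction, as did those of SOCS2 and SPRY4, 4 of the 9 members in all.

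SOCS2 and CISH encode relatives with an SH2 domain and a SOCS box that recruit ubiquitin ligases to cytokine receptors. SOCS2 held 23.5 and 22.6 TPM in NC and 23.0 and 22.2 TPM in sh-ANP32B. Its groups overlapped, with a log2 fold change of -0.03 (95% interval -0.21 to 0.16), and the sign turned when the TPM were rescaled without mitochondrial genes. SOCS2 shares 277 of 6477 exonic bases with SOCS2-AS1 and has 2 annotated pseudogenes. CISH, the member with the 4 STAT motif matches printed above, held 20.7 and 22.1 TPM in NC and 18.03 and 16.35 TPM in sh-ANP32B. Both knockdown libraries were lower, at 80.4% of the control mean, and the log2 fold change was -0.30 (SE 0.090, 95% interval -0.52 to -0.07, limma adjusted p = 0.0414). This change lay just past the threshold. It no longer passed without the first NC library (-0.34, adjusted p = 0.0801), the second NC library (-0.25, adjusted p = 0.159) or the second sh-ANP32B library (-0.23, adjusted p = 0.152), and also with a replicate block (adjusted p = 0.0729) or without mitochondrial genes (adjusted p = 0.0564). CISH shares 218 of 5056 exonic bases with MAPKAPK3 on the opposite strand, which held 275 and 275 TPM in NC and 222 and 237 TPM in sh-ANP32B.

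The order of the levels, which TPM allow because they are per length, changed mainly through DUSP6. In NC it ran PIM1, SPRED2, SOCS2, CISH, DUSP6, ETV5, PIM2, DUSP5 and SPRY4, from 28.9 TPM down to 4.86 TPM, and the ranges of CISH and DUSP6, and of ETV5 and PIM2, overlapped. In sh-ANP32B it ran DUSP6, PIM1, SOCS2, SPRED2, PIM2, CISH, ETV5, DUSP5 and SPRY4, and the ranges of PIM2 and CISH, and of ETV5 and DUSP5, overlapped. DUSP6 thus went from the fifth place to the first. The gap between replicates of a member had a median of 0.0569 in NC and 0.0764 in sh-ANP32B on the log2 scale, with the widest in SPRY4 for NC (0.377) and in DUSP6 for sh-ANP32B (0.212).

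The families of the members show how far each moved with its relatives. Their counts stand beside the 26.0% of all genes that rose, 19.7% that fell and 28.0% called. Of 8 MAP kinase phosphatases tested, DUSP6 rose, DUSP2 and DUSP7 fell, and 5 did not pass. DUSP2, an inducible nuclear phosphatase, held 16.7 and 16.0 TPM in NC and 9.64 and 10.3 TPM in sh-ANP32B (log2 fold change -0.67, SE 0.097, limma adjusted p = 0.00349). DUSP7, which like DUSP6 is cytoplasmic and acts on ERK, held 51.7 and 57.3 TPM in NC and 43.3 and 42.7 TPM in sh-ANP32B (-0.33, limma adjusted p = 0.0117). Hence DUSP6 and DUSP7 moved in opposite directions. DUSP1, DUSP4, DUSP10 and DUSP16 had log2 fold changes between -0.14 and 0.15. Over the family the summed level was 136.6 and 140.3 TPM in NC and 131.6 and 136.6 TPM in sh-ANP32B, while the share of DUSP6 in it was 15.4% and 14.5% in NC and 26.2% and 29.4% in sh-ANP32B.

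**Figure D2:**
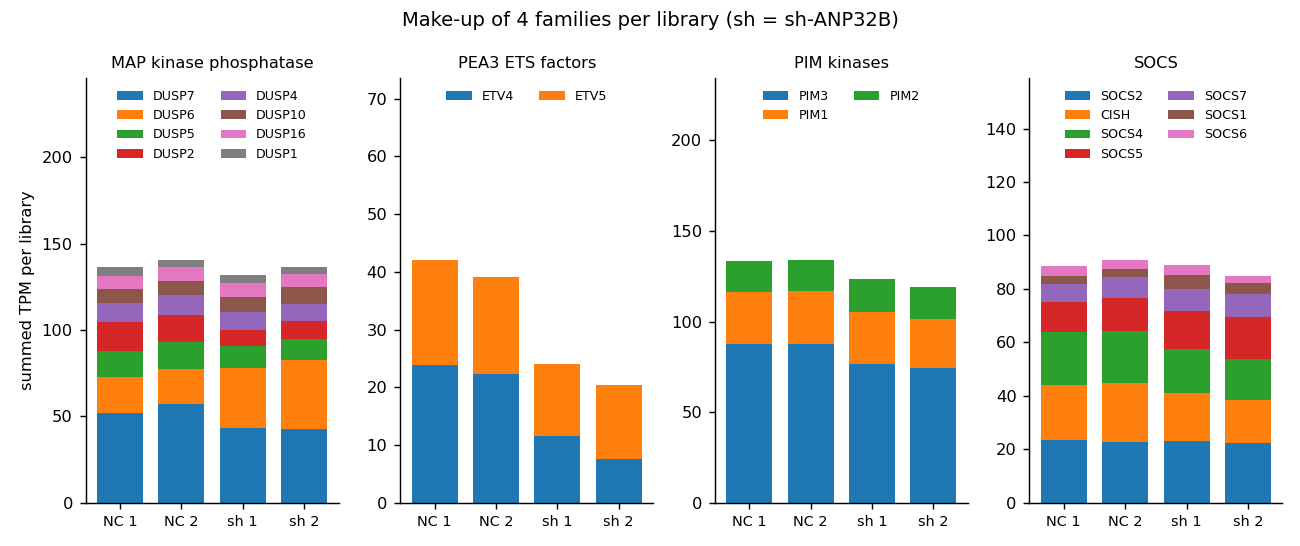
Summed TPM of 4 families in each library, with each coloured block the TPM of 1 gene (sh, sh-ANP32B libraries). The MAP kinase phosphatase total is 131.6 to 140.3 TPM in every library while the DUSP6 block widens in both sh-ANP32B libraries, and the PEA3 total falls from 42.0 and 39.1 TPM to 24.0 and 20.4 TPM.

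ETV4, the PEA3 relative of ETV5, held 23.9 and 22.3 TPM in NC and 11.6 and 7.62 TPM in sh-ANP32B. It fell to 41.6% of the control mean and was called (log2 fold change -1.21, SE 0.188, 95% interval -1.68 to -0.74, limma adjusted p = 0.00451). Both PEA3 genes measured were thus lower, and the share of ETV5 in their sum was 43.0% and 42.8% in NC and 51.5% and 62.7% in sh-ANP32B. Of 5 Sprouty and SPRED genes, SPRED2 changed and none was called, whereas at an unadjusted p below 0.05 limma gave 1 call, SPRED3. SPRY2, at 50.7 and 49.7 TPM in NC and 51.67 and 50.01 TPM in sh-ANP32B, had a log2 fold change of 0.02 (95% interval -0.12 to 0.15), with a sign that turned with the scaling. SPRED3 held 4.31 and 5.11 TPM in NC and 9.14 and 6.43 TPM in sh-ANP32B, at a log2 fold change of 0.61 that missed the threshold (limma adjusted p = 0.0506) but was called without the second sh-ANP32B library (0.83, adjusted p = 0.0241), and SPRY1 had a log2 fold change of -0.27.

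PIM3, the third and highest PIM kinase, held 87.8 and 87.5 TPM in NC and 76.5 and 74.2 TPM in sh-ANP32B, and it fell by 0.22 on the log2 scale (limma adjusted p = 0.0136). Without the first or second NC library or the second sh-ANP32B library it no longer passed, with adjusted p between 0.0515 and 0.0599 and values between -0.22 and -0.19. It was the one of the 3 PIM kinases that changed, and it held between 61.9% and 65.8% of the PIM total in every library. Among 7 SOCS genes, CISH and SOCS4 fell, 5 did not pass, and none was called, whereas limma at an unadjusted p below 0.05 gave 1 call, SOCS1. SOCS4 held 19.9 and 19.6 TPM in NC and 16.6 and 15.0 TPM in sh-ANP32B (log2 fold change -0.30, limma adjusted p = 0.0385), a change that did not pass with the replicate block (adjusted p = 0.0584) or without the first NC, second NC or second sh-ANP32B library (-0.29, -0.31 and -0.24, adjusted p = 0.128, 0.106 and 0.145). SOCS1, an inhibitor of JAK kinases, held 3.21 and 2.80 TPM in NC and 5.32 and 4.10 TPM in sh-ANP32B, and SOCS5 had a log2 fold change of 0.33. Neither passed (limma adjusted p = 0.0715 and 0.0602), and SOCS6 and SOCS7 had values of -0.06 and 0.17.

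**Figure D3:**
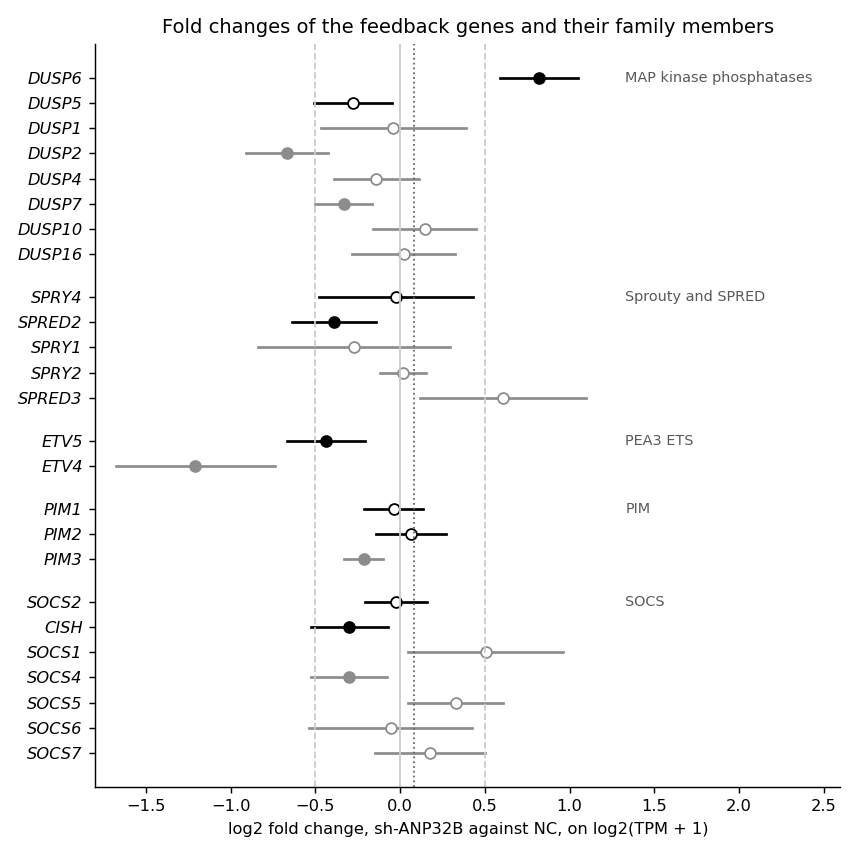
Log2 fold change of sh-ANP32B against NC with its 95% interval from limma, for the members (black) and the other genes of their families (grey). Filled points have an adjusted p below 0.05, dashed lines mark the fold limit of 0.5 and the dotted line the median of all genes (0.08). DUSP6 at 0.82 lies right of the limit, whereas DUSP2 at -0.67 and ETV4 at -1.21 lie left of it.

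Other genes known to respond to ERK moved in both directions. Of 16 on the list, 10 were tested, 2 rose, 1 fell and 1 was called, with a median log2 fold change of 0.15. Over all genes 26.0% rose, 19.7% fell and 28.0% were called. The other riser, EGR1, an immediate early transcription factor (log2 fold change 0.24, limma adjusted p = 0.0429), no longer passed with the replicate block (adjusted p = 0.0541) or without any 1 of the 4 libraries (adjusted p = 0.0681 to 0.165), so that 1 gene rose in each of these. FOS, an immediate early component of AP-1, held 27.2 and 23.6 TPM in NC and 59.7 and 58.6 TPM in sh-ANP32B (log2 fold change 1.19, SE 0.082, limma adjusted p = 0.000311). Of 10 genes listed as STAT5-responsive beside the members, 8 were tested, 3 rose, 2 fell and 2 were called, both higher, with a median of 0.08. Without the first or the second NC library 1 rose, and without the second NC library or either sh-ANP32B library 1 fell. CCND2, the cyclin D2 gene, fell (log2 fold change -0.47, limma adjusted p = 0.00677), and under median-of-ratios or quantile scaling it was called, so that the calls were 1 higher and 1 lower. CDKN1A, the cyclin-dependent kinase inhibitor p21, held 8.56 and 7.15 TPM in NC and 16.5 and 20.2 TPM in sh-ANP32B (1.13, limma adjusted p = 0.00215). BCL6, a repressor that STAT5 is known to lower, held 11.2 and 11.2 TPM in NC and 15.0 and 18.2 TPM in sh-ANP32B (0.52, limma adjusted p = 0.0174), and it was no longer called under median-of-ratios or quantile scaling, nor without the first NC (0.52, adjusted p = 0.0569), second NC (0.51, adjusted p = 0.0564) or second sh-ANP32B library (0.39, adjusted p = 0.0681).

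The genes of the pathways themselves were listed to set the outputs beside their machinery. All 27 RAS to ERK components were tested, of which 8 rose and 4 fell, beside 26.0% and 19.7% of all genes. Of the 27, 3 were called, all 3 higher, beside 17.9% of all genes called higher. The list had a median of 0.05. Without the first NC or the second sh-ANP32B library 5 rose and 2 fell, and without the second NC library 7 rose and 1 fell. Under median-of-ratios scaling 5 rose and 6 fell, the calls were 2 higher and 1 lower, and the lower one was ELK4, which encodes an ETS factor that ERK phosphorylates (log2 fold change -0.41, limma adjusted p = 0.0117, and -0.50 under that scaling). KSR1, a scaffold for RAF, MEK and ERK, held 13.8 and 16.6 TPM in NC and 25.1 and 25.2 TPM in sh-ANP32B (log2 fold change 0.69, limma adjusted p = 0.00424). CIC, the repressor of PEA3 and DUSP genes that ERK inactivates, held 27.2 and 30.2 TPM in NC and 45.3 and 44.1 TPM in sh-ANP32B (0.62, limma adjusted p = 0.00172). MAPK3, which encodes an ERK kinase, held 33.7 and 38.1 TPM in NC and 40.8 and 50.5 TPM in sh-ANP32B, and its log2 fold change of 0.33 did not pass (limma adjusted p = 0.067). It passed with the replicate block (adjusted p = 0.0222) or without the first sh-ANP32B library (0.48, adjusted p = 0.0156).

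Of 14 JAK to STAT components, 10 rose and 1 fell, beside 26.0% and 19.7% of all genes. Of the 14, 6 were called, all 6 higher, beside 17.9% of all genes called higher. The list had a median of 0.39. Its summed level was 722.4 and 751.4 TPM in NC and 997.2 and 989.5 TPM in sh-ANP32B. STAT3 held 31.4 and 36.5 TPM in NC and 63.4 and 62.4 TPM in sh-ANP32B (log2 fold change 0.87, SE 0.083, limma adjusted p = 0.000804). PTPN6, the phosphatase SHP-1 that dampens cytokine receptors, had a log2 fold change of 0.66 (limma adjusted p = 0.000398). STAT5A held 33.4 and 35.9 TPM in NC and 47.3 and 51.8 TPM in sh-ANP32B, a log2 fold change of 0.50 that lay just past the limit (limma adjusted p = 0.00361). Without the first NC or the second sh-ANP32B library it was 0.45 or 0.44, under that limit. STAT5B, at 33.9 and 33.9 TPM in NC and 36.5 and 35.5 TPM in sh-ANP32B, had a value of 0.08 (limma adjusted p = 0.295), and its sign turned with the scaling. Under median-of-ratios or quantile scaling 3 of the list were called, namely PTPN6, STAT3 and TYK2, and under the former 7 rose and 3 fell. The 1 gene that fell, PTPN1, a phosphatase of JAK kinases (-0.27, limma adjusted p = 0.0267), did not pass without the first NC, the second NC or the second sh-ANP32B library (adjusted p = 0.0912, 0.0904 and 0.107).

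FLT3, the receptor whose mutant form drives both branches in these cells, held 6.20 and 6.30 TPM in NC and 5.52 and 5.53 TPM in sh-ANP32B (log2 fold change -0.15, 95% interval -0.48 to 0.17, limma adjusted p = 0.383). Of 14 receptors tested that signal through JAK, STAT or ERK, 9 rose and 8 were called, with a median of 0.57, beside 28.0% of all genes called. Under median-of-ratios scaling 6 of the receptors were called, and under quantile scaling 8. IL3RA, 1 of the 8, held 0.98 and 0.92 TPM in NC and 2.85 and 2.62 TPM in sh-ANP32B. It thus passed the filter only through the knockdown libraries. With at least 1 TPM required in every library, 12 receptors were tested, 8 rose and 7 were called. CSF3R, the G-CSF receptor, held 62.8 and 71.4 TPM in NC and 218 and 214 TPM in sh-ANP32B (1.68, limma adjusted p = 0.0001). CSF2RB, the chain shared by the GM-CSF, IL-3 and IL-5 receptors, held 9.75 and 9.92 TPM in NC and 29.3 and 27.6 TPM in sh-ANP32B (1.44, limma adjusted p = 0.000216). Several receptor genes and JAK to STAT components, among them the dampening phosphatase PTPN6, were thus higher in the libraries in which CISH was lower. The change of CISH did not pass under several alternatives, and the intervals of PIM1, PIM2 and SOCS2 lay inside the fold limit. A link between these levels was not tested.

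**Figure D4:**
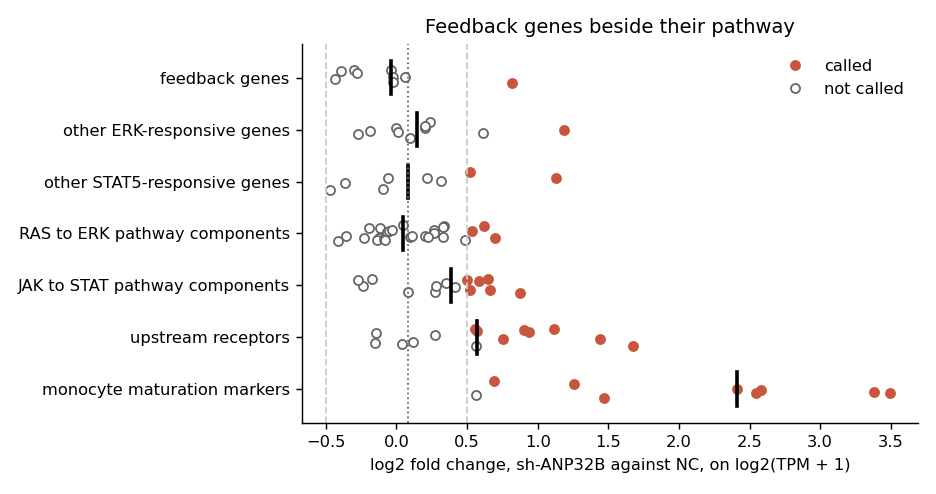
Log2 fold change of sh-ANP32B against NC for each gene of the feedback set and of the lists described beside it. Orange points were called, open points were not, black bars are list medians, dashed lines mark the fold limit of 0.5 and the dotted line the median of all genes. The feedback genes have a median of -0.04 with DUSP6 as the one called gene, whereas the median is 0.39 for JAK to STAT components, 0.57 for receptors and 2.41 for monocyte maturation markers.

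The markers of the labelled cells were checked in the same libraries. Of 9 AML blast markers, 8 were tested, and their sum was 877.7 and 898.6 TPM in NC and 1263 and 1254 TPM in sh-ANP32B, with ANPEP (log2 fold change 1.46), PTPRC (1.15) and CD4 (0.69) called higher and MEIS1 (-0.61) called lower. CD4 held 381 and 383 TPM in NC and 619 and 618 TPM in sh-ANP32B, the greater part of that difference, and FUT4 fell (-0.33, limma adjusted p = 0.00694) without being called. Of 10 monocyte maturation markers, 9 were tested, 8 rose and were called, with a median of 2.41, beside 17.9% of all genes called higher. CD14 was absent from the listed genes. CSF1R, at 0.960 and 1.39 TPM in NC and 2.36 and 2.04 TPM in sh-ANP32B, did not pass (limma adjusted p = 0.0828). The sum of the 9 tested was 777.8 and 770.6 TPM in NC and 6519 and 6466 TPM in sh-ANP32B. Most of it was lysozyme, LYZ, at 471 and 463 against 5308 and 5260 TPM. TYROBP, an adaptor of myeloid receptors, was also among the highest (log2 fold change 3.38). Of 14 markers of other cell types, 3 were measured, with a sum of 28.3 and 28.8 TPM in NC and 53.8 and 55.2 TPM in sh-ANP32B, among them PECAM1 (log2 fold change 1.27). In bulk RNA, fewer cells of a type and less RNA per cell cannot be told apart, and the part of these markers in the levels of DUSP6, SPRED2, ETV5 and CISH was not tested.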

How the data were processed

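RNA of 4 MV4-11 libraries was analysed, grouped by the labels as 2 NC and 2 sh-ANP32B. The authors aligned reads with HISAT2 2.0.5 to hg38, per the submitters' processing notes, and deposited TPM per gene. The tool, annotation and strand setting behind the TPM are not given in the sources used here. TPM keep no read numbers, so no counting error can be given, and the listed genes have a mean of at least 0.500 TPM. The study's count test was replaced, since these are no counts, by limma 3.58.1 in R 4.3.3 (lmFit, eBayes with trend) on log2(TPM + 1), for genes that reached 1 TPM in 2 or more libraries, with Benjamini-Hochberg adjustment over all 16937. The procedure was tested on simulated data. Tables and plots used Python 3.11.15. Symbols were matched for 17290 genes. The members and lists were chosen with earlier results of these data known. Genes named are the members, ANP32B, the tested relatives, FLT3, STAT5A, STAT5B, MAPK3 and, from each further list, the 2 called genes highest and the 2 lowest in fold change. Some genes that this rule names are not reported here. TYK2, EGR1, CCND2, ELK4, PTPN1, CD4 and FUT4 were named after their values were seen. Alternatives were other pseudocounts, filters, scalings, call limits, a replicate block and leaving out each library.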

Additional observations from a re-analysis of the deposited data

How the results depend on the processing

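With 2 libraries per group and unknown depth, small differences in a feedback gene could not be resolved. DUSP6 kept its direction and its call under each alternative at the fold limit of 0.5. Another scaling shifted the all-gene median of log2 fold changes from 0.08 to -0.0045 (median of ratios), -0.04 (quantiles) or 0.11 (without mitochondrial genes), and the share of called genes that were lower from 36.1% to 48.9%, 50.2% or 32.2%. Relative to the median of all genes, the log2 fold change was 0.74 for DUSP6, -0.52 for ETV5, -0.47 for SPRED2, -0.38 for CISH and -0.36 for DUSP5. Same-numbered libraries had a correlation of deviations of -0.0232, so the numbers were not taken to pair them. The replicate block ended the change of CISH (-0.30, adjusted p = 0.0729 by limma) and of no other member.

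DUSP5 passed the threshold under median-of-ratios scaling (-0.37) and quantile scaling (-0.38). Without mitochondrial genes the value of CISH was -0.27 and no longer passed, and SPRY4 (0.0021) and SOCS2 (0.0058) changed sign. PIM2 changed sign under median-of-ratios scaling (-0.0291). Leaving out each library in turn gave ranges of -0.21 to 0.16 for SPRY4, -0.49 to -0.29 for SPRED2, -0.49 to -0.38 for ETV5, -0.0551 to 0.0017 for SOCS2 and -0.37 to -0.23 for CISH. The cause of these shifts was not tested.

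Called members numbered 2 (DUSP6 and ETV5) under median-of-ratios and quantile scaling, and 0 at a log2 fold limit of 1, where 1136 of all genes were called higher and 273 lower. At that limit 0 MAP kinase phosphatases, 0 RAS to ERK components, 0 JAK to STAT components, 1 STAT5-responsive gene and 3 receptors were called. Under median-of-ratios and quantile scaling 2 PEA3 genes and 3 JAK to STAT components were called. In the Sprouty and SPRED family 1 gene was called with at least 1 TPM in every library, without mitochondrial genes and at an unadjusted p below 0.05, and 0 to 1 when a library was left out, while 1 SOCS gene was called at an unadjusted p. The STAT5-responsive list had 1 to 2 called genes when a library was left out, with 1 without the first NC or the second sh-ANP32B library.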
